A study of Homo sapiens with 4 samples.

Results

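The 84 cytosolic ribosomal protein genes described here were the protein-coding genes of the deposited expression table whose symbols follow the RPL, RPS, RPLP or RPSA naming. They were 52 genes of the large subunit and 32 of the small subunit, of 24483 genes in all and 14468 protein-coding genes. The 84 include 7 paralogs whose symbols add L, AL or L1 to that of another gene (RPL3L, RPL7L1, RPL22L1, RPL26L1, RPL36AL, RPL39L and RPS27L). The measurements came from PANC-1, an established line of human pancreatic ductal adenocarcinoma cells, labelled wild-type and grown in medium with 10% serum. For 24 h the cells were given sodium lactate at 30 mM, or water as the vehicle, and RNA bound by the methyltransferase NSUN2 was then immunoprecipitated (IP) from lysates for 4 h. Input RNA was taken before the IP, which gives 4 groups, an input and an IP of each treatment. Each group was 1 library, no control-antibody library was analysed here, and the lactate question of the study therefore has no replicate check for any gene. The keratins KRT8 and KRT18, markers of ductal epithelium, stood at 28.9 and 116 FPKM (fragments per kilobase of gene, scaled to library size) in the vehicle input, whereas the epithelial adhesion gene CDH1 stood at 0.12. VIM, a mesenchymal marker, stood at 237 FPKM. Of the 8 other markers checked, all ductal or epithelial, 6 reached 1 FPKM in at least 1 library of the IP comparisons, and of 16 markers of other cell types 4 were in the table and 1, COL1A1, reached it.

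Ribosomal proteins coat the ribosomal RNAs of the large subunit, which joins amino acids, and of the small subunit, which reads the message. Their messages are short and abundant, and most begin with a C followed by a run of pyrimidines, the terminal oligopyrimidine (TOP) tract, through which LARP1 and the kinase mTORC1 control their translation. NSUN2 places 5-methylcytosine on transfer RNAs and on some messages, and an IP with its antibody recovers RNA that it binds together with whatever RNA stays on the beads.

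The TOP tract was read at the annotated RefSeq start sites (GRCh38.p14), which were given for 67 of the 84 genes. A start was counted as TOP-type when its base 1 was C and opened a run of at least 5 pyrimidines, that C included. By this rule 43 of 67 ribosomal protein genes (64.2%) had a TOP-type start, 26 of 42 in the large subunit and 17 of 25 in the small subunit. The share was 5.26% of the 6082 other protein-coding genes measured and 4.07% of all 35116 start sites of the reference table. The start sites shown here span the full range of recovery in the IP, from RPSA, RPL13A, RPS9 and RPL6, which were among the most recovered genes, to RPL12, RPS24, RPS13 and RPL26, the least recovered, with the most abundant gene, RPS16, between. Each is 30 bases of the transcript's strand, 5′ to 3′, with 10 bases before the start site, and capitals mark the pyrimidine run that opens the transcript.
RPSA: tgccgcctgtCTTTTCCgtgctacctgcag
RPL13A: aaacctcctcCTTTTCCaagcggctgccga
RPL6: gtatcctcagTgaatcagaaccagaaaaag
RPS9: gcttccgcgcCTCTTTCTCagtgaccgggt
RPS16: ccctagctttCCTTTTCCggttgcggcgcc
RPL12: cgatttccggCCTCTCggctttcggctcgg
RPS24: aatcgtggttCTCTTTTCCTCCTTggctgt
RPS13: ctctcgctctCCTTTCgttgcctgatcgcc
RPL26: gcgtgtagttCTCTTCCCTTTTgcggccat
The windows lie at chr3:39406710-39406739 for RPSA, chr19:49487598-49487627 for RPL13A, chr12:112411423-112411452 for RPL6, chr19:54200848-54200877 for RPS9, chr19:39435930-39435959 for RPS16, chr9:127451387-127451416 for RPL12, chr10:78033853-78033882 for RPS24, chr11:17077648-17077677 for RPS13 and chr17:8383174-8383203 for RPL26. A TOP-type start stood at both ends of the range: RPSA and RPL13A carried runs of 7 pyrimidines, RPS9 one of 9, RPL26 one of 12 and RPS24 one of 14. RPL6 had none at its annotated start, and neither did RPL11, RPL7L1 or RPL36AL. An annotated start is not always the start used in these cells, so that a missing tract says only that these letters were not at that position.

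Ribosomal protein genes were among the most abundant genes of the table, but their levels spanned orders of magnitude. The libraries held between 11175432 and 17626197 reads, recovered from the deposited values, and genes outside the mitochondrial genome took 31.3% of them in the input and 30.3% in the IP of vehicle cells, and 20.9% and 13.9% in those of lactate cells. The median ribosomal protein gene stood at 41.4 FPKM before and 29.3 after the IP of vehicle cells, and at 24 and 12 FPKM in lactate cells. Protein-coding genes at 1 FPKM or more had medians between 2.45 and 3.53 FPKM in the same libraries. FPKM is a share of the library per kilobase, so a change in mitochondrial reads moves all nuclear genes, and fewer messages per cell cannot be told apart from a smaller share of the library.

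RPS16, whose tail reaches the decoding region of the small subunit, was the most abundant gene of the set in every library, at 1572 FPKM in vehicle input, 476 in vehicle IP, 795 in lactate input and 247 in lactate IP. RPS12 followed in the vehicle input at 376 FPKM, then RPS21 at 328 and RPL5 at 312. RPS16 thus stood far above the next gene in the vehicle input, while RPS12, RPS21 and RPL5 lay close together. At the other end RPL17 (0.0694 FPKM), RPL3L (0.0823), RPL30 (0.356) and RPS26 (0.580) were under 1 FPKM in the vehicle input, with 2 to 25 reads each. RPL3L is a paralog known from striated muscle, whereas the others encode core proteins of the ribosome, so that their low values are those of the deposited counting and not a statement on the proteins. Recovered gene lengths ran from 639 bp for RPS12 to 9840 bp for RPS29, and the order of genes by FPKM depends on these lengths.

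Part of the range among genes went with processed pseudogenes, intron-less copies of messages elsewhere in the genome. The table listed 477 pseudogenes named after 73 of the genes, and the median gene had 4.61% of its joint reads in them. For 53 of the 73 the share was under 10%, but for 11 it was over 50%, among them RPL17, RPL21, RPL7, RPS26, RPL22, RPS3A, RPS10, RPL3, RPL6 and RPS23. RPL21 had 41 reads in the vehicle input against 798 in its 23 pseudogenes, of which RPL21P16 alone had 672. RPS26 had 21 reads against 26, and RPL17 had 3 against 58. RPL6 had 595 reads in the vehicle input and 1194 in the vehicle IP, beside 1312 and 1167 in its pseudogenes, so that the pseudogene share was 68.8% in the input and 49.4% in the IP. The sources used here do not say how reads that match several copies were divided, and the values of these 11 genes are uncertain for that reason. RPS16, by contrast, had no reads in pseudogenes in the vehicle input.

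**Figure D1:**
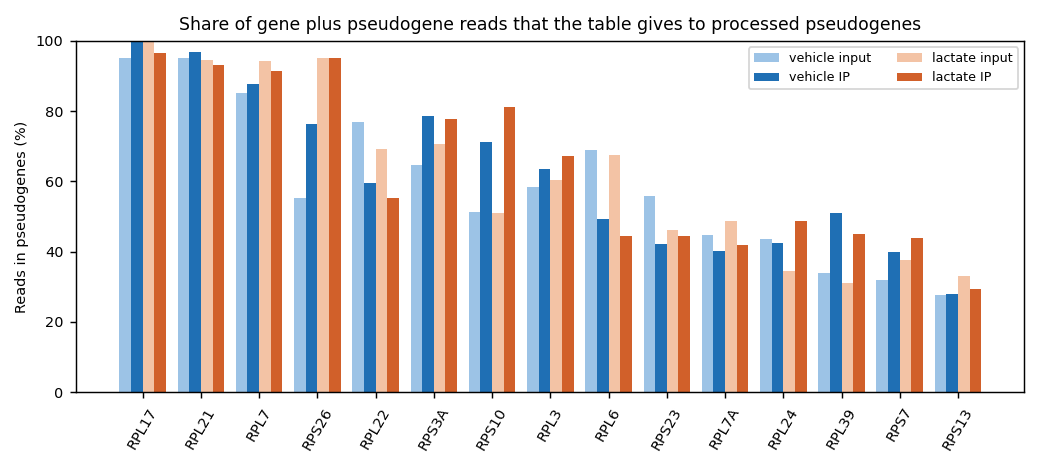
Percent of the reads of a gene plus its processed pseudogenes that the deposited table gave to the pseudogenes (vertical axis), for 15 of the ribosomal protein genes with the largest share; the 4 bars of a gene are its 4 libraries. RPL17 and RPL21 had at least 93.1% in pseudogenes in each library, whereas RPL6 ranged from 44.6% to 68.8%.

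The inputs of lactate-treated and vehicle-treated cells were compared for the ribosomal protein messages, on the scale of log2 FPKM + 1, which understates differences of genes near 1 FPKM. All 79 genes measured, those at 1 FPKM or more in at least 1 of the inputs, were lower in the lactate input, with a median log2 difference of −0.70, against −0.43 over all 6766 genes measured. At least 2-fold lower were 5 of the 79, and 6.46% of all genes measured, and at least 2-fold higher were 0, against 1.76%. The 2-fold count of ribosomal protein genes was near that of all genes, while 67 of the 79 lay under the median gene. Relative to the median gene, 0 of the 79 were 2-fold lower (1.36% of all genes) and 0 were 2-fold higher (2.68%). The large subunit had a median of −0.68 over 49 genes and the small subunit −0.72 over 30. Within classes of gene length the ribosomal protein genes had the lower median too, −0.84 against −0.61 up to 1500 bp (10 and 308 genes), −0.78 against −0.52 up to 2500 bp, −0.65 against −0.46 up to 5000 bp and −0.68 against −0.38 above that.

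RPL38, a surface protein of the large subunit known for patterning defects when it is lost, stood at 129 FPKM in the vehicle input and 51.7 in the lactate input. That was 2.5-fold lower, and its log2 difference of −1.31 was the farthest of the set on the FPKM + 1 scale. By plain FPKM, RPL7 was 5.47-fold lower and RPL39L 3.35-fold lower, on 77 and 44 reads. RPL36AL followed, at 246 and 103 FPKM (−1.24), and the small-subunit genes RPS3A at 22.0 and 10.0 (−1.06) and RPS15A at 18.6 and 8.52 (−1.04). RPS3A and RPS15A were thus lower by about as much as each other. The smallest differences were those of RPL9 (1.18 and 0.906 FPKM, −0.20), RPL21 (−0.25) and RPS23 (−0.28), of which RPL9 and RPL21 rest on 153 and 59 reads. As a share of nuclear reads, the 84 genes took 7.78% (95% Wilson interval 7.76 to 7.80) of the vehicle input and 6.87% (6.84 to 6.91) of the lactate input. The ratio of these shares was 0.884, and it was 0.910 without RPS16. RPS16 alone took 1.34% and 1.02%.

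**Figure D2:**
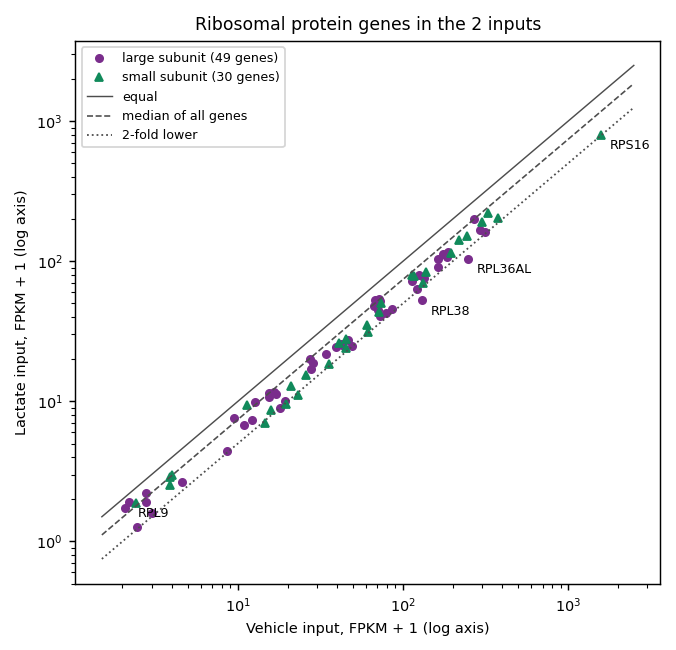
FPKM + 1 in the vehicle input (horizontal) against the lactate input (vertical), both log axes, for the 79 ribosomal protein genes measured, with circles for large-subunit and triangles for small-subunit genes. All points lie under the line of equality, 67 lie under the dashed line of the median gene, and the 5 genes at least 2-fold lower, RPL38 and RPL36AL farthest, lie under or at the dotted line.

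In vehicle-treated cells, the ribosomal protein messages were less abundant in the NSUN2 IP than in its input, relative to the median gene. Their median log2 ratio of IP over input was −0.43 over 79 genes measured, against 0.44 over all 9099 genes. A gene counted as measured at 1 FPKM or more in the input or the IP, which favours high ratios among genes low in the input. The vehicle input alone had 79 ribosomal protein genes at that level. It had 5512 protein-coding genes there, whereas 7284 outside the set were measured. Without that minimum the gap was smaller, as the closing section gives. At least 2-fold lower in the IP were 23 of the 79, against 15.3% of all genes measured, and at least 2-fold higher were 4, against 27.6%. Set against the median gene, 35 of the 79 were 2-fold lower (23.9% of all genes) and 1, RPSA, was 2-fold higher (12.4%). The 84 genes took 4.55% of nuclear reads in the vehicle IP, 0.585 times their share of the input. The subunits were alike in their medians, −0.33 over 49 large-subunit genes (2 higher and 14 lower) and −0.43 over 30 small-subunit genes (2 higher and 9 lower), but by share of reads the large subunit kept 0.673 of its input share and the small subunit 0.490. RPS16 enters that last value with 1.34% of the input and 0.420% of the IP.

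RPSA, the laminin receptor precursor that is also a protein of the small subunit, had the highest ratio of the set. It stood at 2.86 FPKM in the vehicle input and 12.5 in the vehicle IP, 4.36-fold higher (95% counting interval 3.89 to 4.88), and at 1.55 and 5.59 FPKM in the lactate input and IP, 3.61-fold higher (3 to 4.35). It was a gene of low level among ribosomal protein genes in every library, and higher in each IP than in its input. RPL13A, a protein known for leaving the ribosome to silence inflammatory messages, stood at 15.7 and 42.0 FPKM in vehicle input and IP and at 10.6 and 15.5 in lactate input and IP. RPL6 stood at 7.60 and 19.7 FPKM in vehicle cells and at 3.44 and 7.43 in lactate cells. On the FPKM + 1 scale these 3 genes were among the 4 at least 2-fold higher in the vehicle IP, with log2 ratios of 1.80, 1.37 and 1.27. Of the 3, RPSA alone was also 2-fold higher in the lactate IP on that scale. By plain FPKM, RPL6 was 2.16-fold higher there too. RPL13, at 14.4 and 29.7 FPKM, lay just under the 2-fold line on the FPKM + 1 scale, with a log2 ratio of 1.00 after rounding. RPL7L1 followed at 0.96. By plain FPKM these genes were 2.06-fold and 2.04-fold higher in the vehicle IP.

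RPL26, which lies by the exit of the tunnel through the large subunit, had the lowest ratio in vehicle cells. It stood at 162 FPKM in the vehicle input and 20 in the vehicle IP, 8.08-fold lower, and at 90.5 and 8.83 FPKM in the lactate input and IP, 10.3-fold lower. RPS13 stood at 137 and 21.5 FPKM in vehicle cells and at 82.1 and 10.9 in lactate cells. RPL12, at the base of the stalk, stood at 186 and 35.0 FPKM in vehicle cells and at 116 and 17.6 in lactate cells. Each of these abundant messages was low in both IPs relative to both inputs. RPS24, a gene mutated in Diamond-Blackfan anaemia, stood at 244 and 52.3 FPKM in vehicle cells, 4.66-fold lower, and at 151 and 13.5 FPKM in lactate cells, 11.2-fold lower. RPS24 was thus the lowest of the set in lactate cells but not in vehicle cells. RPS3A (−2.14), RPL36AL (−2.07), RPL22L1 (−1.81), RPS16 (−1.72), RPL27A (−1.65) and RPS7 (−1.61) came next in vehicle cells by log2 ratio.

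In lactate-treated cells, the same comparison gave a median of −0.98 over 74 ribosomal protein genes measured and −0.097 over all 7170 genes. Here too a gene could count as measured through its IP alone. At least 2-fold lower were 35 of the 74 (23.3% of all genes measured) and at least 2-fold higher were 2, RPSA among them (16% of all genes). Set against the median gene, 35 were 2-fold lower (20.5% of all genes) and 4 were 2-fold higher (19.3%), among them RPSA (1.47), RPS9 (1.03) and RPL6 (1.02). The large subunit had a median of −0.86 (0 of 45 higher and 21 lower) and the small subunit −0.995 (2 of 29 higher and 14 lower). The 84 genes took 4.24% of nuclear reads in the lactate IP, 0.617 times their share of the input. RPS9, which flanks the message entry channel, was higher in this comparison than in vehicle cells, at 7.71 and 15.6 FPKM in input and IP, beside 14.8 and 22.5 in vehicle cells.

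The order of genes was much the same in both conditions. Over the 74 genes measured in each, the enrichment in vehicle and in lactate cells had a Pearson correlation of 0.926 and a Spearman correlation of 0.927 across genes, which are not independent replicates and share the counting. Other protein-coding genes (5768) gave 0.941 and 0.934, so this stability was not particular to ribosomal protein genes. All 23 genes that were 2-fold lower in vehicle cells were also 2-fold lower in lactate cells, which is 65.7% of the 35 lower there. The 10 highest genes of the conditions had 7 in common and the 10 lowest had 6. The same counts were not taken over all genes. The median of all genes was itself lower in lactate cells, at −0.097 against 0.44, so these overlaps are not a result about ribosomal protein genes.

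**Figure D3:**
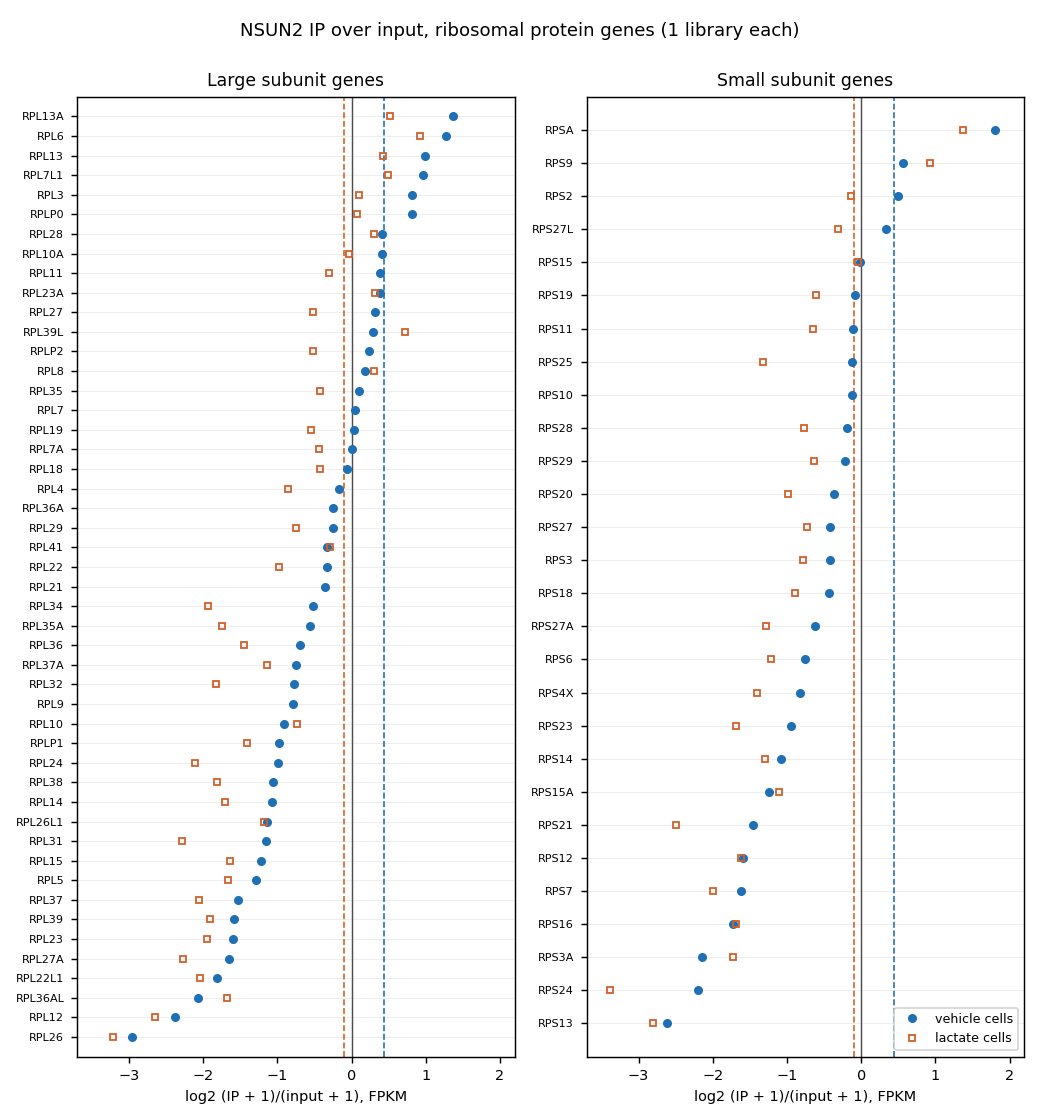
Log2 ratio of IP over input (FPKM + 1, horizontal) for the ribosomal protein genes shown by name, large subunit at left and small subunit at right, ordered by the vehicle value; filled circles are vehicle cells, open squares lactate cells, and dashed lines the median over all genes in each condition. RPSA and RPL13A lead the panels at 1.80 and 1.37 in vehicle cells, RPL26 and RPS13 close them at −2.95 and −2.62, and most open squares lie to the left of the filled circle of the same gene.

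The comparison with all genes and the comparison with genes of like abundance pointed in opposite directions. The ratio of IP over input was lower for more abundant genes throughout the table, with a Pearson correlation of −0.55 between log2 input FPKM and log2 ratio across 7284 other protein-coding genes in vehicle cells and −0.65 across 5818 in lactate cells. Ribosomal protein genes followed the same slope, at −0.46 over 79 and −0.54 over 74. These correlations share the input value on their axes, so genes were next grouped by their level in the input of the other condition. Among genes at 100 FPKM or more in the lactate input, the median vehicle ratio was −1.29 for 15 ribosomal protein genes and −2.15 for 35 other protein-coding genes. At 10 to 100 FPKM it was −0.53 for 41 and −0.88 for 675, and at 1 to 10 FPKM it was 0.34 for 17 and 0.032 for 3768. Grouped by the vehicle input, the lactate ratio at 100 FPKM or more was −1.40 for 25 ribosomal protein genes and −2.40 for 62 other genes, at 10 to 100 FPKM −1.12 for 40 and −1.14 for 1017, and at 1 to 10 FPKM 0.32 for 9 and −0.14 for 3853. Ribosomal protein genes were therefore lower than the median gene of the table, yet not lower, by the median, than other genes of their own level in any of these 6 classes. Genes below 1 FPKM in the lactate input counted as measured only at 1 FPKM or more in the vehicle input or IP, which favours a high IP. The medians there were −0.19 for 6 ribosomal protein genes and 0.84 for 2793 other genes in vehicle cells. Because of that filter no order was read from this class. Within each of 4 length classes up to and over 5000 bp the ribosomal protein genes had the lower median in both conditions. In vehicle cells it was −0.78 against 0.20 for genes of up to 1500 bp and −1.07 against 0.49 above 5000 bp.

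**Figure D4:**
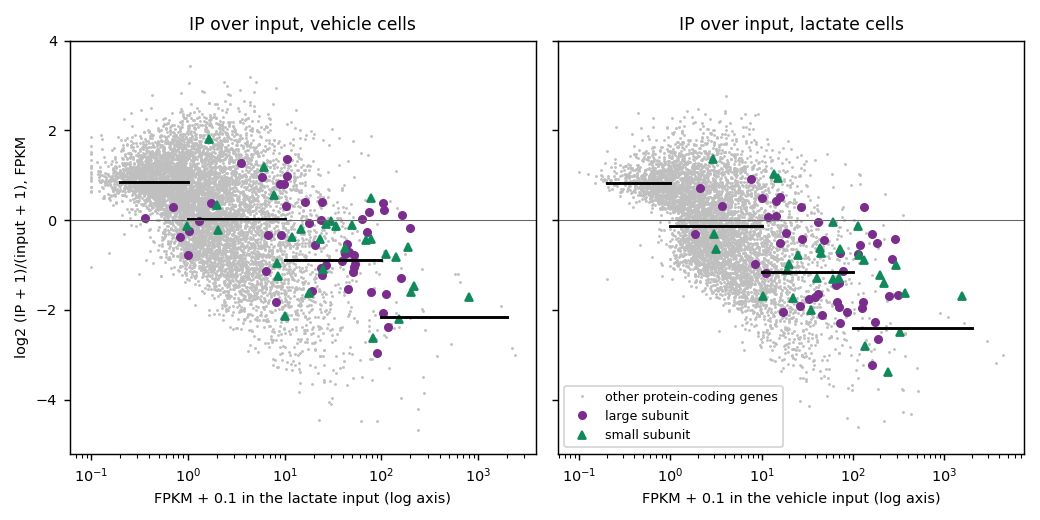
Log2 ratio of IP over input (vertical) against FPKM + 0.1 in the input of the other condition (horizontal, log axis), for other protein-coding genes (grey points), large-subunit genes (circles) and small-subunit genes (triangles); black bars are the medians of the other genes in each level class. The ratio declines with level in both panels, and at 100 FPKM or more the ribosomal protein genes, with medians of −1.29 and −1.40, lie above the bars of other genes at −2.15 and −2.40.

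Genes with a TOP-type start had lower ratios than those without in each condition, by the median. The groups were not matched for input level. Among ribosomal protein genes the ratio fell with that level, at a Pearson correlation of −0.46 in vehicle cells and −0.54 in lactate cells. In vehicle cells the medians were −0.56 for 43 genes with the tract and −0.18 for 22 without, and in lactate cells −1.36 for 40 and −0.64 for 21. Among other protein-coding genes the medians lay closer together, at 0.37 for 318 with it and 0.44 for 5726 without in vehicle cells, and −0.14 for 262 and −0.074 for 4572 in lactate cells. Tract length itself had only a weak correlation with the ratio across ribosomal protein genes, −0.25 in vehicle cells and −0.29 in lactate cells. The sequences printed for RPSA and RPL13A show that a tract did not go with a low ratio in every gene.

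The difference between the conditions in enrichment was taken by subtracting the log2 ratio in vehicle cells from that in lactate cells. Its median was −0.43 over 79 ribosomal protein genes and −0.36 over all 9445 genes measured. At least 2-fold lower in lactate cells were 8 of the 79 (9.56% of all genes) and at least 2-fold higher 0 (3.04%). Set against the median gene, 1 was 2-fold lower (3.28% of all genes) and 0 were 2-fold higher (5.11%). The share that was 2-fold lower was near that of all genes without centring, and the other shares were below those of all genes. The large subunit had a median of −0.44 with 5 of 49 lower, and the small subunit −0.42 with 3 of 30 lower.

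RPL34 had the largest difference, −1.41. It stood at 70.1 FPKM in the vehicle input and 48.3 in the vehicle IP, and at 44.0 and 10.7 FPKM in the lactate input and IP. Its level was thus lowest in the lactate IP, and the gap between IP and input was wider in lactate cells. RPS25, which some viral internal ribosome entry sites require, stood at 59.7 and 54.9 FPKM in vehicle cells and at 34.0 and 13.0 in lactate cells, a difference of −1.2. RPL35A and RPS24 followed at −1.19 each, then RPL31 (−1.13), RPL24 (−1.11), RPL32 (−1.04) and RPS21 (−1.03). In the other direction stood RPL39L (0.44, on 108 reads), RPS3A (0.41), RPL36AL (0.39) and RPS9 (0.36), all under 2-fold. RPL38 and RPL36AL, which had the lowest lactate inputs relative to vehicle, differed here by −0.76 and 0.39.

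The stalk proteins and the partners RPL5 and RPL11 did not behave as units in these ratios. RPLP0, which anchors the stalk that recruits elongation factors, stood at 11.7 and 21.2 FPKM in vehicle input and IP, RPLP1 at 70.6 and 35.4, and RPLP2 at 184 and 216. Their log2 ratios were 0.81, −0.98 and 0.23 in vehicle cells and 0.077, −1.40 and −0.51 in lactate cells. RPL5 and RPL11 bind ribosomal RNA together and, when free of the ribosome, inhibit MDM2. RPL5 stood at 312 and 127 FPKM in vehicle cells and at 160.4 and 50 in lactate cells, a log2 ratio of −1.29 and −1.66. RPL11 stood at 161 and 212 FPKM in vehicle cells and at 103 and 82.9 in lactate cells, 0.39 and −0.31.

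The paralogs differed from their partners in level in either direction. RPL36AL stood at 246 FPKM in the vehicle input against 1.77 for RPL36A, and RPL22L1 at 17 against 8.44 for RPL22, while RPL26L1 (11.2) was below RPL26 (162), RPL39L (2.03) below RPL39 (26.5) and RPS27L (2.90) below RPS27 (44.3). RPL7L1 stood at 9.87 FPKM against 1.45 for RPL7. RPL7 and RPL22 had most of their reads in pseudogenes, 391 beside 69 for RPL7 and 2291 beside 694 for RPL22 in the vehicle input, so that the order within these pairs is uncertain. In vehicle cells the log2 ratio of IP over input was −2.07 for RPL36AL and −0.25 for RPL36A, −1.81 for RPL22L1 and −0.33 for RPL22, −1.13 for RPL26L1 and −2.95 for RPL26, and 0.29 for RPL39L and −1.58 for RPL39. RPS27L and RPS27 had 0.34 and −0.43, and RPL7L1 and RPL7 had 0.96 and 0.042. In the pairs of RPL36A, RPL26, RPL39 and RPS27, the gene with the higher input level had the lower ratio. RPL3L, at most 0.266 FPKM, was too low to be measured.

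Peaks in the authors' deposited lists, which set each IP against its own input along the genome (GRCh38), were sparse in ribosomal protein genes. The vehicle list held 77 peaks in 37 of the 84 genes and the lactate list 32 peaks in 18. With a q-value under 0.01 in the authors' deposited lists, these were 52 peaks in 27 genes and 16 peaks in 11. The other counts of this paragraph take every listed peak, whatever its q-value. At 1 FPKM or more in the input or IP, 41.8% of 79 ribosomal protein genes had a peak in the authors' deposited vehicle list, against 90.9% of 7271 other protein-coding genes, and 21.6% of 74 against 79.8% of 5805 in the lactate list. The gap stayed among genes of up to 2500 bp, at 29% against 76% in the vehicle list and 10.3% against 57.5% in the lactate list. It also stayed among genes at 10 FPKM or more in the input of the other condition, at 32.1% of 56 against 74.4% of 710 and 15.4% of 65 against 64.1% of 1079. Of the 77 peaks of the vehicle list, the authors annotated 37 to exons, 19 to 3′ UTRs, 17 to introns and 4 to 5′ UTRs. Peaks that overlapped between the lists were 19, which is 24.7% of the vehicle peaks and 59.4% of the lactate peaks, and 17 genes had a peak in both lists. These shares were not taken over all peaks of the lists. In the authors' deposited comparison of the IP libraries, 20 of 90 peaks in ribosomal protein genes were labelled common. Over all genes these were 26381 of 116484, so overlap was not particular to ribosomal protein genes.

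Among peaks of ribosomal protein genes, the highest fold in each of the authors' deposited lists lay in an exon of RPL6, at chr12:112408351-112408769 in the vehicle list, with a fold enrichment of 7.66, and at chr12:112408347-112408697 in the lactate list, with 10.2. Other protein-coding genes reached 78.5 and 80.2 in the authors' deposited lists. In RPSA an exonic peak at chr3:39411738-39412403 had a fold of 5.82 in the authors' deposited vehicle list, and its counterpart at chr3:39411731-39412400 had 5.60 in the lactate list. RPL6 and RPSA were also among the genes with the highest IP over input ratio by FPKM. The next folds of the authors' deposited vehicle list were an intronic peak of RPL31 (6.29) and exonic peaks of RPL7 (6.07), RPS9 (5.88) and RPL7L1 (5.63). In the authors' deposited lactate list an intronic peak of RPL39L (6.34) and an exonic peak of RPL28 (5.30) stood with them. RPL31 had a low ratio over the whole gene (−1.15 in vehicle cells), so that a peak in an intron and a low recovery of the gene stood side by side.

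The authors' deposited comparison of the IP libraries held 90 peaks in ribosomal protein genes. Their median log2 ratio of lactate over vehicle density was −0.11, against −0.50 over all 116484 peaks. Of the 90, in the authors' deposited table, 6 had a ratio of at least 1 (13.9% of all peaks) and 23 of −1 or less (38.6%). The strongest peaks of RPL6 (−0.19) and RPSA (−0.0011) differed little between the libraries on that scale, which the authors had normalized between the IPs and which is not the scale of the FPKM ratios.

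Proteins that join the ribosome without matching the naming rule gave mixed values. RACK1, a scaffold on the small subunit, stood at 60.1 FPKM in the vehicle input and 143 in the vehicle IP, a log2 ratio of 1.24, and 0.73 in lactate cells. FAU, which encodes a ribosomal protein fused to a ubiquitin-like protein, had a log2 ratio of −0.44 in vehicle cells and −0.36 in lactate cells. Neither was 2-fold lower in either IP.

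Other messages known for a TOP tract were low in the IPs as well, set against all genes. As a list they were not compared with genes of their own level. Of 22 measured from a list of 25, 9 were at least 2-fold lower in the vehicle IP (15.3% of all genes) and 2 higher (27.6%), with a median of −0.67. In lactate cells 13 were lower (23.3% of all genes) and 1 higher (16%), with a median of −1.33. The elongation factor gene EEF1A1 had log2 ratios of −1.98 and −2.52, and the nucleolar chaperone gene NPM1 −3.86 and −4.33. TPT1, which encodes a tumour protein under translational control, had −3.96 and −4.47. EEF1A1, NPM1 and TPT1 stood at 266, 276 and 160 FPKM in the lactate input. Protein-coding genes outside the ribosomal set at 100 FPKM or more there had a median vehicle ratio of −2.15. NPM1 and TPT1 lay below that median and EEF1A1 above it. EEF2, the translocation factor, had 1.91 and 1.15 and EIF3F, of an initiation factor, 1.06 and 0.46. The list took 4.67% of nuclear reads in the vehicle input and 1.46% in the vehicle IP, 0.313 times, where ribosomal protein genes had 0.585.

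Genes whose products build ribosomes had medians above 0 in both conditions. Of 31 biogenesis and assembly factors measured, 12 were at least 2-fold higher in the vehicle IP (38.7%, against 27.6% of all genes) and 5 lower (16.1% against 15.3%), with a median of 0.82 where all genes had 0.44. Of 25 in lactate cells 3 were higher (12% against 16%) and 4 lower (16% against 23.3%), with a median of 0.44 where all genes had −0.097. By these counts the factors lay near all genes, apart from the share that was higher in vehicle cells. Some of these factors were under 1 FPKM in the vehicle input and counted as measured only through their IP. NOP56 and DKC1, core proteins of small nucleolar particles, had log2 ratios of 2.19 and 2.1 in vehicle cells and 1.6 and 1.35 in lactate cells, whereas RRS1 had −1.63 and −2.80. Of the mTORC1 and LARP1 genes 8 of 13 were measured in the IP comparisons, with medians of 0.25 and 0.13. EIF4EBP1, a repressor of cap-dependent translation, stood at 1.56 and 1.53, LARP1 itself at 1.48 and 0.85, and RHEB, the activator of mTORC1, at −3.65 and −2.45. The ribosomal protein genes that carry small nucleolar RNAs in their introns did not stand apart, with medians of −0.40 over 24 in vehicle cells and −0.86 over 23 in lactate cells, against −0.43 and −1.10 for the other ribosomal protein genes.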

How the data were processed

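RNA immunoprecipitated with NSUN2 and input RNA from PANC-1 cells were sequenced in 4 libraries, 1 per group. Libraries were made with the SMART-Seq v4 kit, per the labels' protocols. Tools named in the submitters' processing notes include HISAT2 2.1.0 and MACS2 2.2.7.1 beside fastp 0.20.1, HOMER 4.11.1 and bedtools 2.29.2, with build GRCh38. Which program counted genes, with which annotation, strand setting and handling of multi-mapped reads, was not given in the sources used here, so that a gene and an antisense or overlapping partner cannot be told apart. The group called vehicle carries the label nc and was matched to the water control in the labels' protocols.

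The authors deposited FPKM per gene. Per the file headers, the peak lists give for each peak its fold enrichment (a ratio), its q-value, its p-value and the −log10 of each. The authors' deposited comparison of IP libraries gives a normalized density (signal), log2 values M and A, and a P column without values over 0.25, which was treated as a score and not used.

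Library totals and whole reads were recovered from the FPKM values (72387 above 0, 99.99% whole within 1e-05 reads, 2 genes unresolved), and the step was tested on simulated data for 22694 genes, of which 91.7% came out exactly. Recovered lengths and reads of a gene can be understated by a common factor. Log2 ratios used FPKM + 1 for genes at 1 FPKM or more in at least 1 compared library (for the difference between conditions, in any library), and counts used 2-fold. With 1 library per group no test was run. Intervals (95%, Wilson for shares) cover counting error only, since the reads carry no molecular identifiers. A gene without reads could still hold up to 3 reads, which is 2.68e-05% of the smallest library.

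The genes and lists were chosen with earlier results of these data known. Genes named were the 4 highest and 4 lowest per subunit and comparison, the 5 highest and lowest by vehicle input level, paralogs, stalk proteins, RPL5 and RPL11, and the 5 with the largest pseudogene share or peak fold, plus up to 3 at each end of the other lists. Genes named only to complete a count were chosen after their values were seen. Genes of the printed start sites, RACK1 and FAU, and the partners of paralogs were named beside them. Results of some genes are not reported here, though counts and medians include them. Start sites were taken from RefSeq (GRCh38.p14). Alternatives are given in the closing section. Python 3.11.15, numpy 2.4.6 and pandas 2.3.3 were used.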

Additional observations from a re-analysis of the deposited data

Results flagged for a closer look

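The log2 ratio of IP over input, computed from FPKM without a pseudocount, was above 0 in vehicle cells and below 0 in lactate cells for 6 of the 74 ribosomal protein genes measured in both, with each counting interval clear of 0. RPL11 stood at 0.39 and −0.31, RPL27 at 0.33 and −0.58, RPL35 at 0.11 and −0.42, RPLP2 at 0.23 and −0.52, RPS2 at 0.50 and −0.14 and RPS27L at 0.44 and −0.51. With 1 library per group the difference between conditions was not tested for any of them. The median over all genes also moved, from 0.44 to −0.097 on the FPKM + 1 scale, and relative to it only RPS2 kept opposite signs, at 0.052 and −0.040.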

How the results depend on the processing

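No paired analysis was possible because each group has 1 library. The direction against the background turned under 1 alternative: with other protein-coding genes at 10 FPKM or more in the input of the other condition as background, a choice made after seeing the data, the median of the ribosomal protein genes minus that of the background went from −0.87 to 0.56 in vehicle cells and from −0.88 to 0.22 in lactate cells. The same background gave −0.14 in place of −0.26 for the inputs, and genes of up to 1500 bp, a length that only 10 of the ribosomal protein genes share, gave −0.082 there and −0.63 in vehicle cells. Pseudocount 0.1 gave 12 lower genes in the inputs (5 as reported), −1.06 in vehicle cells and 5 higher in lactate cells. Pseudocount 5 gave 2 lower in the inputs with a difference of −0.41, −0.49 in vehicle cells, −0.67 and 0 higher in lactate cells, and 2 lower (8 as reported) between conditions. Without an FPKM minimum the differences of medians were −0.56 for the inputs, −0.43 in vehicle cells and −0.34 between conditions, and with a minimum of 5 it was −0.35 in lactate cells. Scaling by median ratios gave 0 lower in the inputs, 39 lower and 1 higher in vehicle cells, 1 higher in lactate cells and 0 lower between conditions. Equal nuclear totals gave 0 lower in the inputs, 15 lower, 8 higher and −0.74 in vehicle cells, 19 lower and 10 higher in lactate cells and 0 lower between conditions. Relative to the median gene, counts were 0 lower in the inputs, 35 lower and 1 higher in vehicle cells, 4 higher in lactate cells and 1 lower between conditions. Peaks with q under 0.01 left 11 genes with a peak in the lactate list, from 18. Leaving out RPS16, the paralogs or the 11 genes with most reads in pseudogenes, or adding pseudogene reads, moved no count by over 1.5 times. Of 448 values of named genes under 7 alternatives, 185 moved by more than the typical counting error of their comparison. That error was the median distance from a value to the end of its counting interval. Changes of sign were counted only for log2 values of at least 1 in size as reported, and there were 0. Smaller values were not counted for a change of sign. The cause was not tested.

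One library per group limits every comparison, since counting intervals leave out the variation between cultures. Low genes such as RPL17, RPL30 and RPS26 hold under 30 reads in most libraries. The antibody's own background was not measured here.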
